A study of Mus musculus with 12 samples.

Results

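The genes described here encode the collagens, the laminins and the proteins that join or surround them in basement membranes and connective tissue. Members were chosen by name: every probe that is no control spot and whose gene name in the scanner files is a collagen chain, a laminin alpha, beta or gamma chain, Nid1, Nid2, Hspg2, Fn1, Sparc, Fbn1, Fbn2, Eln, Dcn, Lum or Bgn. The rule took 65 genes with 97 probes, of 39429 probes on the array. RNA came from the pituitary of C57BL/6J females aged 2 months, whose diet was normal (control), or lacked vitamin D during early life only or during the peripubertal stage only, with 4 animals in each group. No group carries a transgene, a deletion or a further treatment in the labels. Both animals of an array belonged to 1 group, the odd-numbered one in the dye Cy3 and the even-numbered one in Cy5, so array-mates were not independent. The labels call the animals biological replicates and name no cage, litter or stage of the estrous cycle.

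A basement membrane is a thin sheet of matrix on which epithelial and endothelial cells rest. It is built from a network of laminin trimers, each of 1 alpha, 1 beta and 1 gamma chain, and a network of type IV collagen, with nidogens and perlecan linking them. In the anterior pituitary such sheets surround the cords of hormone cells and the capillaries between them, while fibrillar collagens and small proteoglycans lie in the capsule and around vessels and are made mainly by fibroblasts and pericytes.

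Values are log2 spot intensities after background correction and scaling. They compare samples for 1 gene, not 1 gene with another, because probes differ in brightness for reasons other than the amount of RNA. A member was called changed at an adjusted p under 0.05 in a fit over all genes with limma, a linear model that shares its estimate of spread between genes. In whole-gland RNA, fewer cells of a type and less RNA per cell cannot be told apart.

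The control arrays shared a slide with no other group, and the arrays of both deficient groups shared a second slide. Differences from control therefore cannot be told apart from differences between slides. The deposited value table holds each deficient group's channels under the name of the other. Group names here follow the scanner files, and under the table's naming early life and peripubertal would change places throughout. Between 53 and 59 of the 65 members were well above background in each sample, except 44 in early life 3. That sample also had the lowest share of all spots above background, 50.6% against 55.2% to 67.2% in the others, and the lowest mean over the members.

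In the part of a collagen that forms the triple helix, glycine recurs at a fixed step, so that a codon beginning with GG follows every 9 bases. A probe only partly in that part, or across a break in the repeat, does not carry it throughout. The count below is therefore not that of probes in the helix. Of the 68 collagen probes, 2 carried that repeat in 1 reading frame through all 60 bases, against 0.0127% of the 39361 other probes on the array. They are shown because they can be read directly as collagen, with the glycine codons in capitals. The scanner files give probe positions on the mouse build mm9.
Col15a1, chr4:47283786-47283845: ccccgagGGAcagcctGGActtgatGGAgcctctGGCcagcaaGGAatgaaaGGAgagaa
Col25a1, chr3:130270497-130270556: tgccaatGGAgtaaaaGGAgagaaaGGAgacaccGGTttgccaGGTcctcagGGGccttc

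The Col15a1 probe stood for its gene, a collagen that tethers basement membranes to the matrix below, and averaged 7.48 ± 0.29 (log2, SD, n = 4) in control, 7.55 ± 0.09 in early life and 7.69 ± 0.12 in peripubertal samples. The other probes of Col15a1 were not well above background in any channel. Around the probe shown, spots of dim probes deviated by 0.44 and 0.30 (log2) in early life 1 and 2. The Col25a1 probe was 1 of 4 kept for that transmembrane collagen. It was well above background in all control and peripubertal channels and in 0 of 4 early life channels, so it passed the filter through the other groups and gives no exact difference for early life. The brightest Col25a1 probe, well above background in 3 of 4 early life channels, differed by -0.24 against control and -0.30 against peripubertal (adjusted p = 0.567 and 0.429 by limma).

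Laminins were the most evenly detected family, with 11 of 11 genes well above background in all 12 channels. The 3 linkers, the 3 small leucine-rich proteoglycans, Fn1 and Sparc were detected in every channel too, as were 8 of 9 collagens of basement membranes, the exception being Col15a1 with 10. Fibrillar collagens reached all channels for 7 of 11 genes and fibril-associated collagens for 4 of 9. In all, 43 members were detected in 12 channels and 19 in 1 to 11. The other 3, Col6a4, Col6a6 and Col9a3, were not well above background in any channel. Of the 65 members, 55 had a probe well above background in at least 4 channels and entered the fit. The 10 left out were the 3 just named and Col5a2, Col6a5, Col8a1, Col9a1, Col10a1, Col19a1 and Col28a1. Col5a2 was detected only in peripubertal 3 and 4, where the dim spots around its probe deviated by a median of 2.07 and 0.45 (log2). Col6a5 was detected only in peripubertal 3, where those around its probe deviated by 1.48. Detection of these 2 genes there may come from the bright surroundings, which was not tested. Because the filter counts channels over all groups, a gene detected in a single group could enter.

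**Figure D1:**
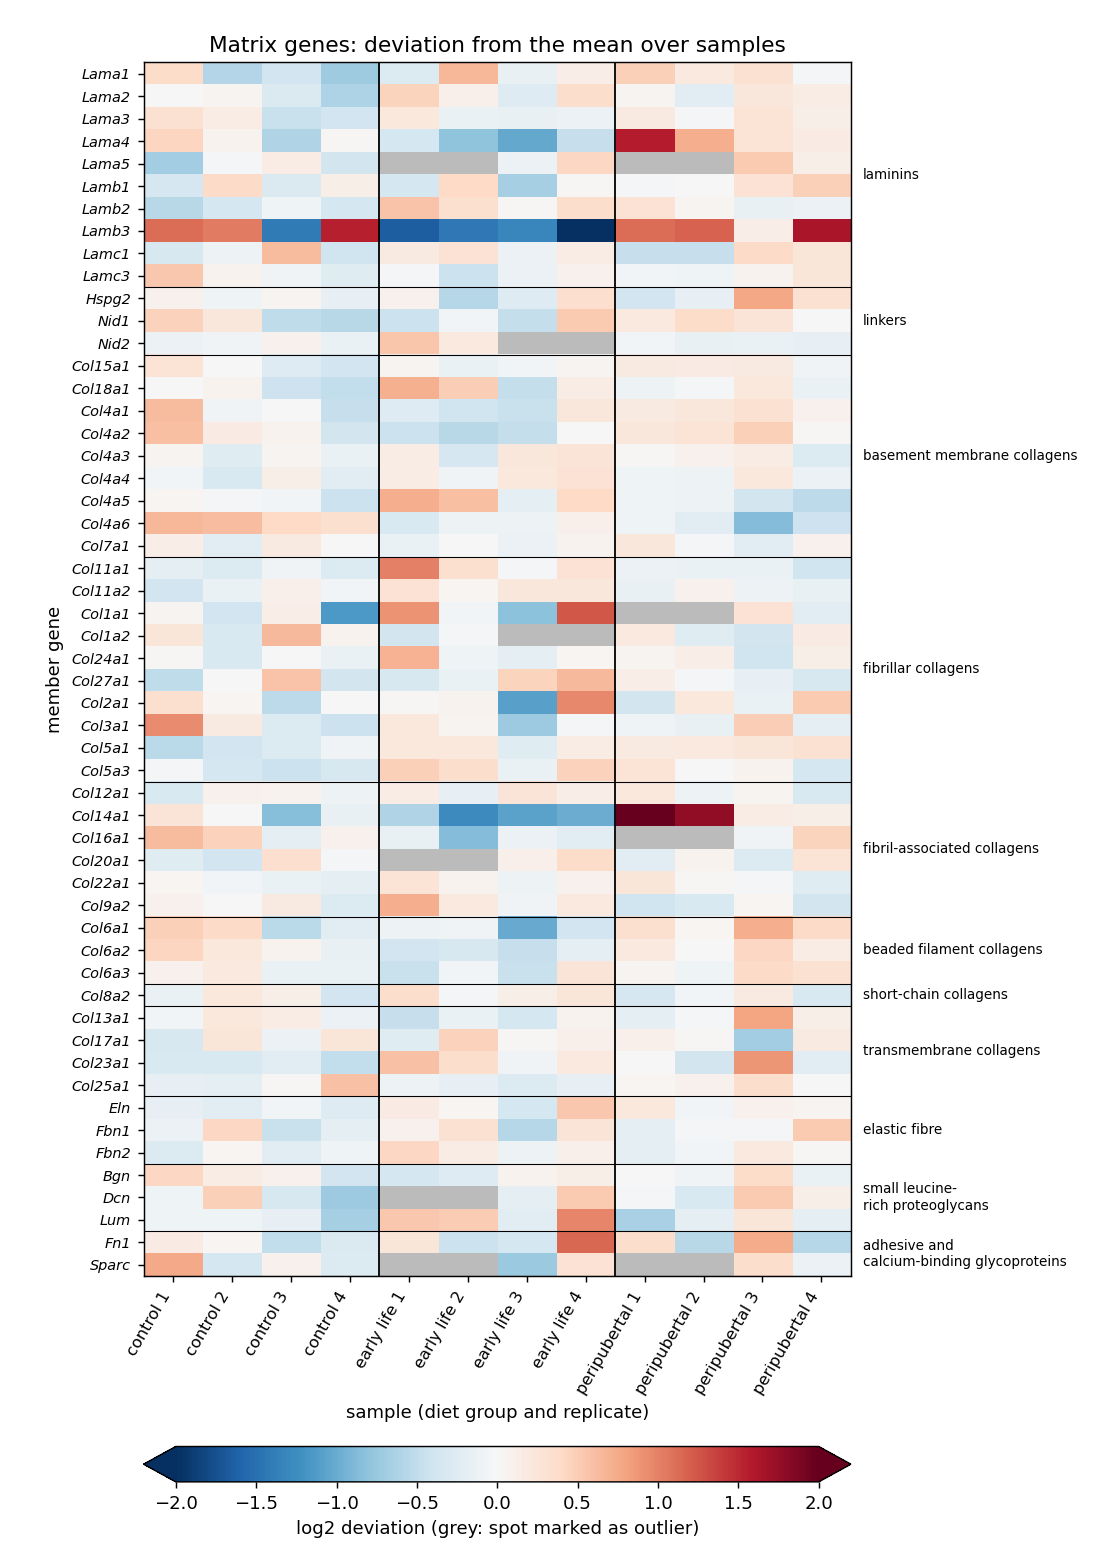
Deviation of each member's log2 intensity from its own mean over the samples, by sample (columns, diet group and replicate) and gene (rows, ordered by role); red is above and blue below the mean, and grey marks spots that the scanner software had marked as outliers. Lamb3 is low in control 3 and in the 4 early life samples, Col14a1 is high in peripubertal 1 and 2, and most other rows are pale.

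No member passed the threshold in any of the 3 comparisons of diets. For early life against control this was 0 of 55 members, where 0.0979% of 18387 genes passed. For peripubertal against control it was 0 of 55, where 0.0213% of 18771 genes passed, and for early life against peripubertal 0 of 55, where 0.132% of 18242 genes passed. At an unadjusted p under 0.05, 6 members were higher in early life than in control (8.66% of all genes) and 4 were lower (7.48% of all genes). These come to 10.9% and 7.27% of the members, close to the share of all genes. Between peripubertal and control, 2 were higher (1.60% of all genes) and 1 lower (3.08%). Early life exceeded peripubertal for 4 members (10.6% of all genes) and lay below it for 7 (8.77%). Over the members, the median difference from control was 0.15 (log2) in early life and 0.10 in peripubertal samples, and that of early life from peripubertal was -0.05. The same medians over all genes were 0.03, 0.01 and 0.03. The members named next are those of smallest p, and none of their differences passed.

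**Figure D2:**
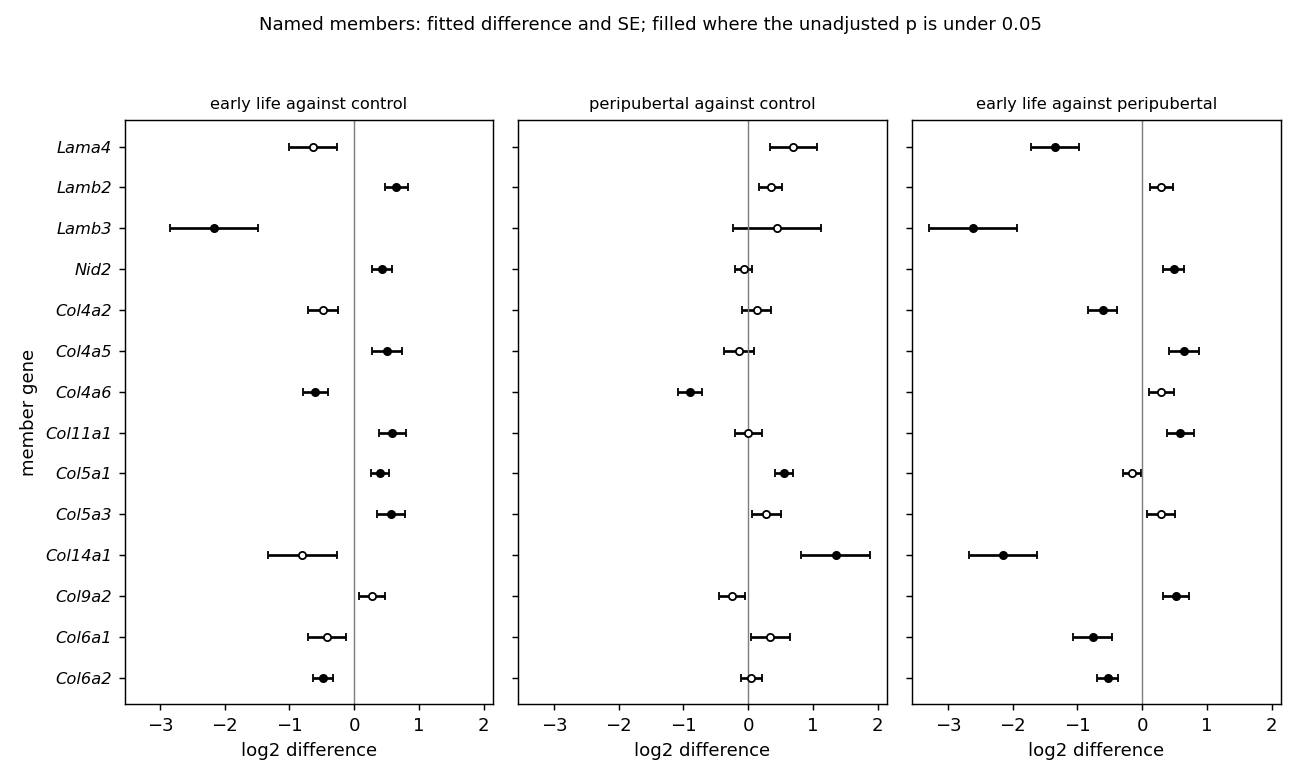
Fitted log2 difference (horizontal axis, point) with its standard error (bar) for each named member (vertical axis) in the 3 comparisons; filled points have an unadjusted p under 0.05. Lamb3 has the largest difference in both comparisons with early life, -2.17 and -2.61, and Col4a6 is the only filled point below 0 for peripubertal against control, at -0.90.

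Among the laminins, Lamb3, a beta chain of epithelial basement membranes, had the largest differences. It measured 11.72, 11.64, 9.18 and 12.15 (log2) in control 1 to 4, then 8.95, 9.17, 9.29 and 8.61 in early life and 11.72, 11.77, 10.73 and 12.23 in peripubertal samples. Control 3 lay with the early life animals, and every peripubertal value lay above every early life value. Early life was lower than control by a log2 difference of -2.17 (SE 0.68, adjusted p = 0.195 by limma) and lower than peripubertal by -2.61 (SE 0.68, adjusted p = 0.115). Without control 3, chosen here because it stands apart from the other controls, the differences were -2.82 (adjusted p = 0.0180) and -2.61 (adjusted p = 0.0192), so Lamb3 passed in both. That fit passed 225 and 231 of all genes in these comparisons, where the full fit passed 18 and 24. Lamb3 also passed against peripubertal without early life 3 (-2.90, adjusted p = 0.0443), without the control array of animals 3 and 4 (-2.61, adjusted p = 0.0306) and without the early life array of animals 3 and 4 (-2.55, adjusted p = 0.0429). Its probe lies at chr1:195170009-195170068, and the dim spots around it deviated by at most 0.14 on any channel.

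Some genes outside the members had a similar order of samples to Lamb3. Emilin2, a matrix glycoprotein of elastic fibres from the list of other matrix proteins, measured 11.11, 10.88, 8.73 and 10.97 in control, 7.59, 8.44, 8.42 and 8.62 in early life and 11.07, 10.83, 11.07 and 11.47 in peripubertal samples. Pgr, the progesterone receptor, a gene known to be induced by estrogen in the pituitary, measured 9.92, 10.08, 8.63 and 10.08 in control, 7.31, 7.84, 8.32 and 7.77 in early life and 9.73, 10.17, 9.62 and 10.03 in peripubertal samples. Gal, the neuropeptide galanin and likewise known for its induction by estrogen there, measured 17.57, 16.80, 14.26 and 17.43, then 14.58, 12.72, 14.66 and 13.30, then 16.74, 17.24, 16.36 and 17.48. In Emilin2, Pgr and Gal control 3 was the lowest control, and every early life value lay below every peripubertal value. Greb1, another estrogen-induced gene that was looked at, measured 12.94, 13.11, 12.04 and 13.09 in control, 11.27 to 12.49 in early life and 13.33, 13.16, 12.27 and 12.78 in peripubertal samples. Control 3 was its lowest control too, but early life 3 lay above peripubertal 3, so its groups overlapped. Pgr, Gal and Greb1 were picked after earlier values were seen. Their part in the Lamb3 result was not tested, and none of the 3 passed (adjusted p = 0.0897, 0.224 and 0.308 for early life against control, 0.0542, 0.138 and 0.219 against peripubertal, by limma).

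**Figure D3:**
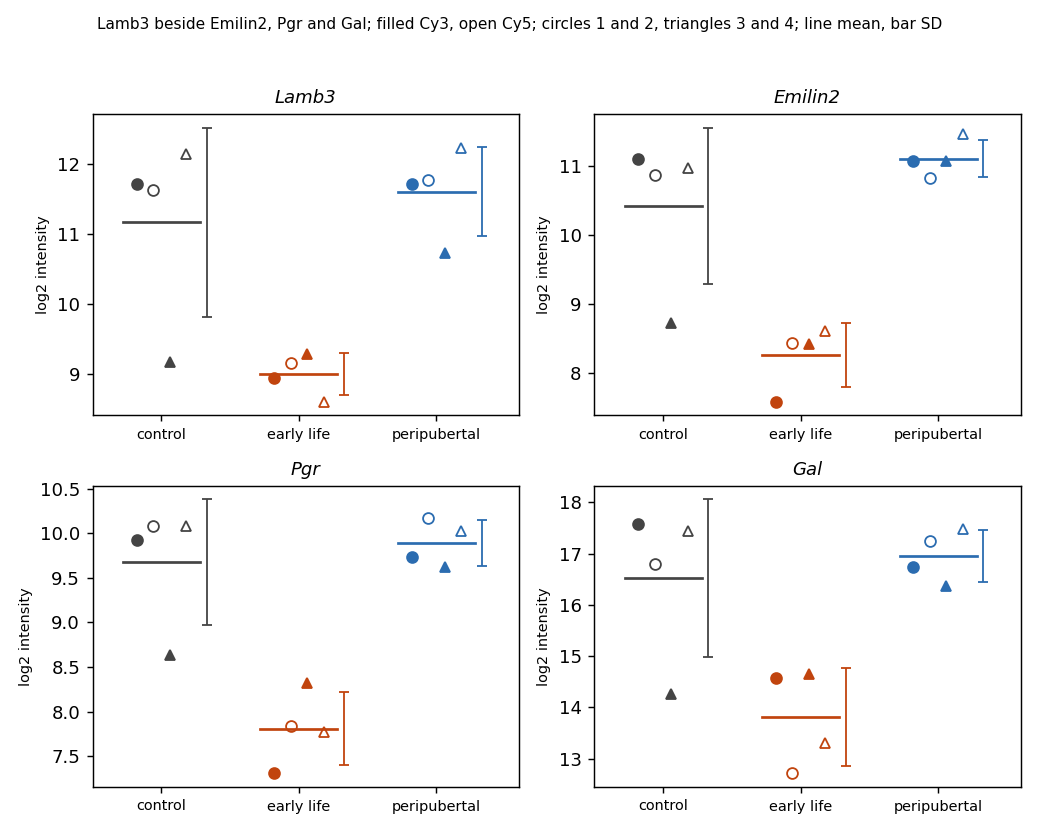
Log2 intensity (vertical axis) by diet group (horizontal axis) for Lamb3, Emilin2, Pgr and Gal, 1 point per animal; filled points are Cy3 and open points Cy5, circles are replicates 1 and 2 and triangles 3 and 4, lines are means and bars SD (n = 4). In all 4 panels control 3, the filled triangle, lies apart from the other controls and near the early life animals.

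Lamb2, the beta chain found in vascular and kidney basement membranes, measured 8.67, 8.88, 9.14 and 8.87 in control, 9.79, 9.55, 9.25 and 9.58 in early life and 9.51, 9.28, 9.08 and 9.10 in peripubertal samples. Every early life value exceeded every control value, while peripubertal samples lay between and overlapped with both. The difference of early life from control was 0.65 (SE 0.18, adjusted p = 0.166 by limma), the smallest p of any member in that comparison. The dim spots around the Lamb2 probe deviated by -0.26 in control 1 and 0.33 in control 2, so its spot lay in a patch on that array. It passed without the early life array of animals 3 and 4 (0.78, adjusted p = 0.0289). Lamb1, the paralogue of Lamb2 that pairs with the same gamma chain, differed by -0.11 (SE 0.21, adjusted p = 0.815) for early life against control.

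Lama4, the alpha chain typical of endothelium, measured 9.37, 9.02, 8.34 and 8.97 in control, 8.59, 8.14, 7.92 and 8.48 in early life and 10.51, 9.67, 9.21 and 9.11 in peripubertal samples. Early life lay below peripubertal in every animal, by -1.34 (SE 0.37, adjusted p = 0.12 by limma). Peripubertal 1 and 2, which shared an array, were the highest, and on that array the spot of Lama4 lay in a bright patch, described with Col14a1. Without spots in such patches the peripubertal mean rested on animals 3 and 4, and the difference was -0.88 (SE 0.35, adjusted p = 0.224).

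The other laminins described here differed less. Lama3, an alpha chain of epithelia, differed by 0.05 for early life against control (SE 0.18, adjusted p = 0.922 by limma) and by -0.19 for early life against peripubertal (SE 0.18, adjusted p = 0.593). Its other kept probe gave -0.15 and -0.33 (unadjusted p = 0.283 and 0.0300, adjusted p = 0.595 and 0.219), the former of opposite sign. Lamc1, the gamma chain present in most trimers, averaged 12.01 ± 0.47 (log2, SD, n = 4) in control, 12.19 ± 0.17 in early life and 11.99 ± 0.45 in peripubertal samples. Lama5, the alpha chain of most adult epithelia, averaged 10.40 ± 0.37 in control, with 10.80 ± 0.37 and 10.96 ± 0.28 over the 2 animals measured in each of the early life and peripubertal groups. Over the 11 laminins, the early life mean exceeded the control mean for 6 and lay below it for 5 (median difference 0.05), and it exceeded the peripubertal mean for 3 and lay below it for 8 (median -0.16).

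None of the 3 linkers passed, and Nid2 had the smallest p in both comparisons with early life. Nid2, a nidogen that bridges laminin and collagen IV, measured 9.54, 9.58, 9.73 and 9.51 in control, 10.20 and 9.84 in early life 1 and 2 and 9.60, 9.50, 9.51 and 9.49 in peripubertal samples. Both measured early life animals lay above all others, but they shared an array and the other early life array was lost to outlier marks. The differences were 0.43 against control (SE 0.16, adjusted p = 0.253 by limma) and 0.49 against peripubertal (SE 0.16, adjusted p = 0.159). The latter passed when the whole array of early life 3 and 4 was left out of the fit (0.49, adjusted p = 0.0350). Nid1, the other nidogen, averaged 10.12 ± 0.52 in control, 10.10 ± 0.46 in early life and 10.41 ± 0.16 in peripubertal samples. Its dimmer kept probe went otherwise, at 0.95 for early life against control and 1.00 against peripubertal, with values of 9.71 and 8.97 in early life 1 and 2 and at most 7.90 in every other animal. Hspg2, perlecan, averaged 11.01 ± 0.12, 10.93 ± 0.40 and 11.16 ± 0.51 in control, early life and peripubertal samples.

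Type IV collagen is made from 6 chains whose genes lie in pairs that are transcribed away from each other. The 2 chains on chromosome X differed in sign for early life against control only. For peripubertal against control both differences were negative, that of Col4a5 at -0.14 (SE 0.23). For early life against peripubertal both were positive, at 0.30 (SE 0.19) for Col4a6 and 0.65 (SE 0.23) for Col4a5. Col4a6 measured 9.60, 9.55, 9.34 and 9.26 in control, 8.64, 8.83, 8.84 and 9.04 in early life and 8.85, 8.72, 8.07 and 8.52 in peripubertal samples. All 4 control values lay above all 8 values of the deficient groups. The difference was -0.60 for early life against control (SE 0.19, adjusted p = 0.197 by limma) and -0.90 for peripubertal against control (SE 0.19, adjusted p = 0.304), the smallest p of any member in the latter. Both comparisons use the same controls, on the slide that held them alone. The dim spots around its probe deviated by 0.41 in peripubertal 1 and by -0.30 in peripubertal 3. Only the array of peripubertal 1 and 2 counted as a patch, and the spot with -0.30 around it was kept. Without the patch the peripubertal mean rested on animals 3 and 4, which shared an array. The differences were then -0.60 (adjusted p = 0.153) and -1.14 (adjusted p = 0.161 by limma).

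Col4a5, its partner, measured 8.22, 8.15, 8.12 and 7.75 in control, 8.90, 8.78, 8.0 and 8.58 in early life and 8.10, 8.08, 7.82 and 7.66 in peripubertal samples. Early life 3 lay among the other groups and the other 3 early life animals above them. The difference was 0.51 against control (SE 0.23, adjusted p = 0.308 by limma) and 0.65 against peripubertal (SE 0.23, adjusted p = 0.177). It passed against peripubertal without early life 3 (0.85, adjusted p = 0.0283), and in both comparisons without the array of early life 3 and 4 (0.78, adjusted p = 0.0244, and 0.93, adjusted p = 0.0134).

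The starts of Col4a6 and Col4a5 lie 1343 bases apart in RefSeq on build GRCm38.p6. The 250 bases before each start are shown because the pair differed in sign between early life and control. Capitals mark GGGCGG, the GC box, and CCAAT, each searched on both strands, with no overlap between the matches shown.
Col4a6, chrX:141474077-141474326, minus strand: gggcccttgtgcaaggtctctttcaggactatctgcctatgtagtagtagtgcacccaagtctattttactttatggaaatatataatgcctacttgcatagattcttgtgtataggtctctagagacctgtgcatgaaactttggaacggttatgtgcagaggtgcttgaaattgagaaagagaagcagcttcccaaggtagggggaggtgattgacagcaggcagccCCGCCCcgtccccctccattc
Col4a5, chrX:141475169-141475418, plus strand: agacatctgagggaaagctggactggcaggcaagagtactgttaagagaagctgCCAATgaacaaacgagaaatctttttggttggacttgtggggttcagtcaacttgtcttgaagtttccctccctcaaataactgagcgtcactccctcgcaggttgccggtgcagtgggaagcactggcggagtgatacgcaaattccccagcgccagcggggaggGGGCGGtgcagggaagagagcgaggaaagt

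Each held 1 GC box, and Col4a5 also 1 CCAAT box. In the 300-base windows of RefSeq (250 before and 50 after the start), 45 members had an entry. A GC box was in 64.4% of these 45 and in 35.7% of all 32851 windows, and CCAAT in 31.1% and 37.4%. The letters TATAAA were in 11.1% of the members and 13.6% of all. No member's window held AGGTCA or GGTTCA repeated after a gap of 3 bases, textbook forms of the vitamin D response element, each of which was present in 0.00609% of all windows. None held GGTCA followed after 3 bases by TGACC, the estrogen response element, present in 0.07% of all. A match or its absence describes these letters only.

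The main chains of type IV collagen, Col4a1 and Col4a2, both had their lowest group mean in early life. Col4a1, whose probe is printed 10 times on the array, averaged 11.06 ± 0.45 in control, 10.82 ± 0.31 in early life and 11.23 ± 0.09 in peripubertal samples. Its replicate spots differed within a channel by an SD of 0.24 to 0.41, and early life differed from control by -0.24 (SE 0.27, adjusted p = 0.683 by limma). Col4a2 measured 11.74, 11.30, 11.21 and 10.77 in control, 10.71, 10.58, 10.67 and 11.14 in early life and 11.36, 11.41, 11.61 and 11.17 in peripubertal samples. Each early life value was below each peripubertal value, the closest pair being 11.14 and 11.17. The difference was -0.61 against peripubertal (SE 0.23, adjusted p = 0.198 by limma) and -0.48 against control (SE 0.23, adjusted p = 0.33), and the former passed without the early life array of animals 3 and 4 (-0.74, adjusted p = 0.0482). The starts of Col4a1 and Col4a2 lie 21 bases apart on chromosome 8. Col4a3 and Col4a4, the chains of kidney and lung basement membranes, differed by 0.15 (SE 0.16) and 0.26 (SE 0.14) for early life against control. Col18a1, the source of endostatin, differed by 0.42 (SE 0.26, adjusted p = 0.439), and its other kept probe by 0.50. Col7a1, of anchoring fibrils, differed by -0.07 (SE 0.16).

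**Figure D4:**
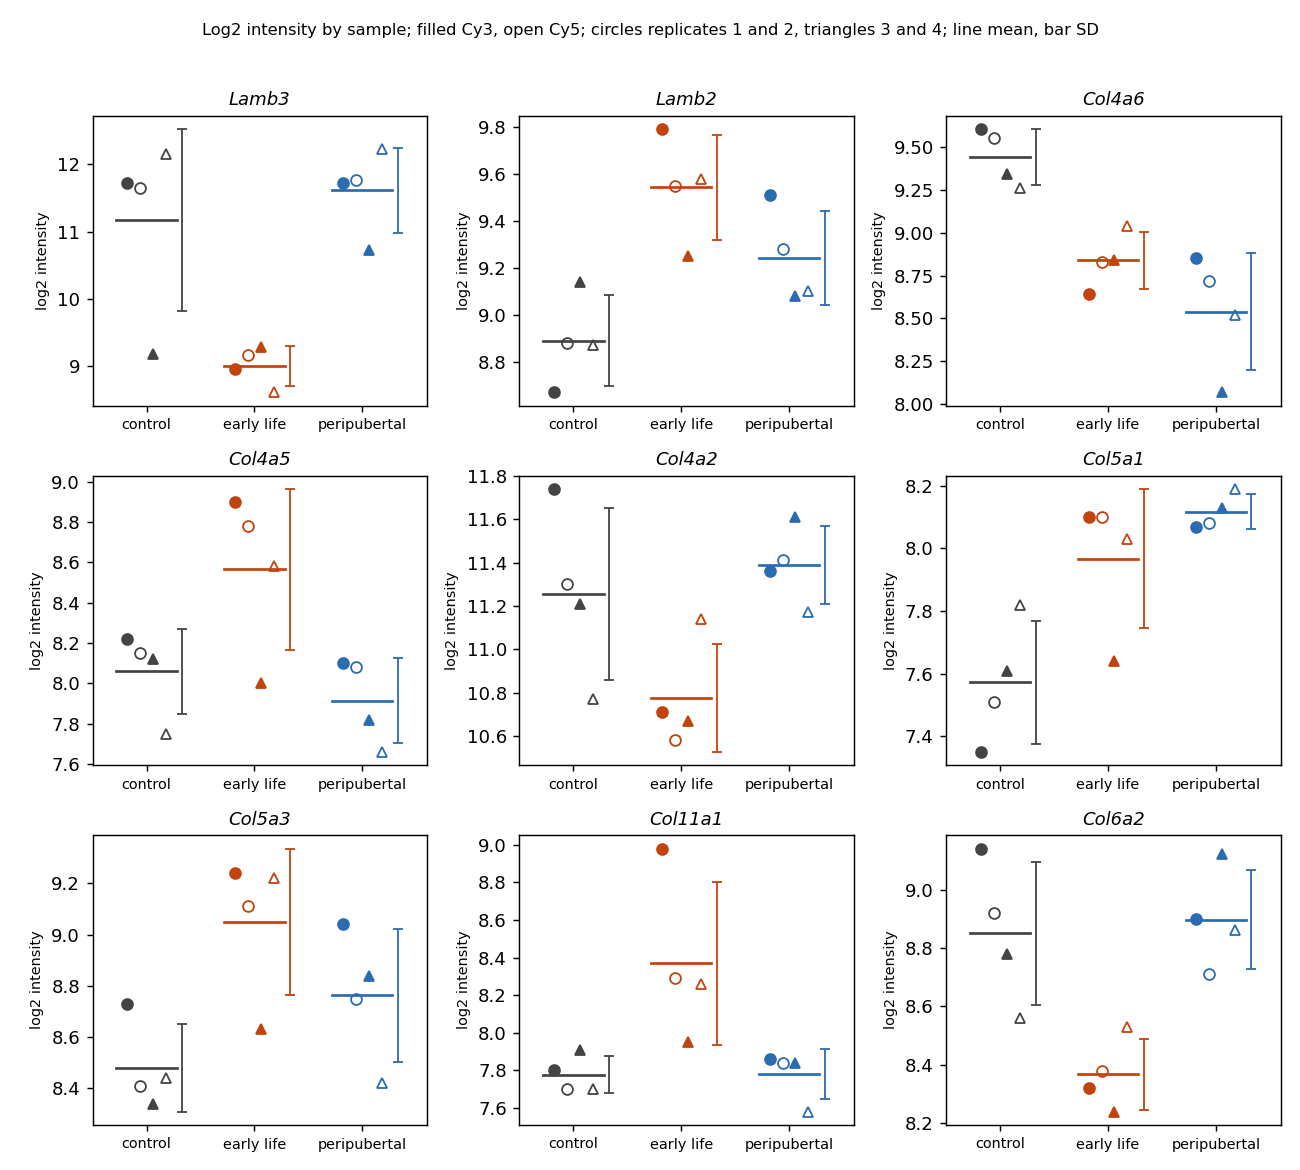
Log2 intensity (vertical axes, each with its own range) by diet group (horizontal axes) for 9 members, 1 point per animal; filled points are Cy3 and open points Cy5, circles are replicates 1 and 2 and triangles 3 and 4, lines are means and bars SD (n = 4). Col4a6 is higher in all 4 controls, at 9.26 to 9.60, than in the deficient groups, and early life 3, a filled triangle, is the lowest early life animal for Lamb2, Col4a5, Col5a1, Col5a3 and Col11a1.

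Among fibrillar collagens, Col1a1 and Col1a2, the chains of type I collagen, averaged 9.88 ± 0.59 and 14.79 ± 0.40 in control, each on its own probe's scale. Col1a1 averaged 10.53 ± 0.94 in early life and 10.24 ± 0.37 over 2 peripubertal animals, and Col1a2 14.41 ± 0.23 over 2 early life animals and 14.57 ± 0.28 in peripubertal samples. Col3a1, of type III collagen, averaged 10.80 ± 0.62, 10.57 ± 0.41 and 10.72 ± 0.32 in control, early life and peripubertal samples. The early life against control differences of these 3 genes ran from -0.38 to 0.65, with adjusted p-values of 0.616 to 0.77 by limma.

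Col5a1, Col5a3 and Col11a1 are minor fibrillar chains, which nucleate fibrils and limit their width. Col5a1 measured 7.35, 7.51, 7.61 and 7.82 in control, 8.10, 8.10, 7.64 and 8.03 in early life and 8.07, 8.08, 8.13 and 8.19 in peripubertal samples. All peripubertal values exceeded control values, and early life 3 alone kept the early life group from doing so. The difference from control was 0.55 for peripubertal (SE 0.14, adjusted p = 0.556 by limma) and 0.40 for early life (SE 0.14, adjusted p = 0.235), and the latter passed without the array of early life 3 and 4 (0.53, adjusted p = 0.0413). Col5a3 measured 8.73, 8.41, 8.34 and 8.44 in control and 9.24, 9.11, 8.63 and 9.22 in early life, with early life 3 below control 1. It differed by 0.57 for early life against control (SE 0.22, adjusted p = 0.254) and passed without early life 3 (0.75, adjusted p = 0.0498) and without its array (0.69, adjusted p = 0.0318).

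Col11a1, a minor chain best known from cartilage, measured 7.80, 7.70, 7.91 and 7.70 in control, 8.98, 8.29, 7.95 and 8.26 in early life and 7.86, 7.84, 7.84 and 7.58 in peripubertal samples. Each early life value exceeded every value of the other groups, early life 3 (7.95) by little over the nearest control (7.91) and early life 1 by the most. The difference was 0.59 against each of the other groups (SE 0.21, adjusted p = 0.235 and 0.184 by limma). It passed without the array of early life 3 and 4 in both comparisons (0.86 in each, adjusted p = 0.0170 and 0.0152) and against peripubertal without early life 3 (0.76, adjusted p = 0.0381). Of 8 markers of cartilage and bone, Matn1 and Comp were not well above background in any channel and 5 entered the fit. Their mean deviation ran from -0.12 to 0.21 in control, 0.03 to 0.17 in early life and -0.18 to 0.04 in peripubertal samples, and its part in the result was not tested.

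Col14a1, a collagen that coats fibrils, had the smallest p of any member for early life against peripubertal. Its brighter probe, at chr15:55352264-55352323, measured 9.41, 9.16, 8.30 and 9.0 in control, 8.54, 7.88, 8.08 and 8.16 in early life and 11.77, 10.92, 9.30 and 9.27 in peripubertal samples. Peripubertal 1 and 2, on 1 array, exceeded their own group's other animals by more than 1.5 (log2), and all peripubertal values lay above all early life values. The difference was -2.15 (SE 0.53, adjusted p = 0.110 by limma), and 1.35 for peripubertal against control (SE 0.53, adjusted p = 1.00). Without the array of peripubertal 3 and 4, the first was -3.18 (adjusted p = 0.0143). The other kept probe of Col14a1 gave -0.45 and 0.05 in the same comparisons.

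The spot of that brighter probe lay in row 414 and that of Lama4 in row 416 of the same column, 33. On the array of peripubertal 1 and 2 the dim spots around Col14a1 deviated by a median of 1.04 and 0.17 (log2), and those around Lama4 by 0.55 and 0.09. The spot of the predicted gene Gm2839, in row 411 of that column, read 10.94 and 9.85 in peripubertal 1 and 2 and 6.36 to 6.80 in the other 10 samples. It was the brightest of the dim spots around Col14a1 in both animals. The next, in row 412 of column 32, read 10.54 and 9.41. All others with values read lower in both animals, and at most 7.11 in peripubertal 2. Around the other Col14a1 probe the dim spots deviated by at most 0.12 in size. Without spots in patches, an alternative added after seeing the data, Col14a1 rested on peripubertal 3 and 4. It then differed by -1.12 for early life against peripubertal (SE 0.36, adjusted p = 0.159) and by 0.32 for peripubertal against control (SE 0.36, adjusted p = 1.00).

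**Figure D5:**
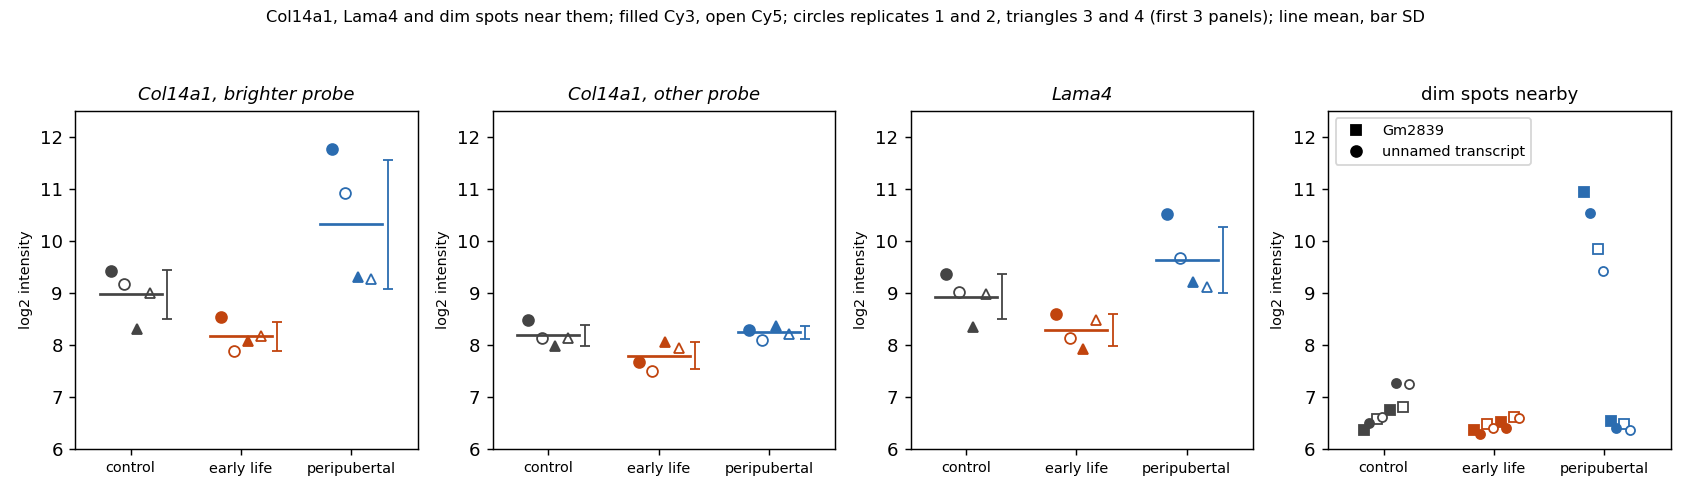
Log2 intensity (vertical axis) by diet group (horizontal axis) for both kept Col14a1 probes, Lama4 and 2 dim spots near the brighter Col14a1 probe, 1 point per animal; filled points are Cy3 and open points Cy5, circles are replicates 1 and 2 and triangles 3 and 4 in the first 3 panels, lines are means and bars SD (n = 4). The 2 dim spots shown are the brightest of those around that probe in peripubertal 1 and 2, where they rise to between 9.41 and 10.94. The brighter Col14a1 probe and Lama4 are highest in the same animals. The other dim spots there read lower, and the median deviation of all was 1.04 in peripubertal 1 and 0.17 in peripubertal 2.

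Of the other collagens of fibril surfaces, Col9a2, a cartilage collagen, measured 9.53, 8.99, 8.73 and 8.99 in early life and 8.40, 8.49, 8.83 and 8.43 in peripubertal samples, where early life 3 and peripubertal 3 overlapped. The difference was 0.52 (SE 0.20, adjusted p = 0.204 by limma), and it passed without the array of early life 3 and 4 (0.72, adjusted p = 0.0281). Col16a1 measured 11.81, 11.64, 10.98 and 11.27 in control, 11.04, 10.32, 11.06 and 10.96 in early life and 11.11 and 11.62 in peripubertal 3 and 4. Both its kept probes were lower in early life than in control, by -0.58 and -0.52, without passing (adjusted p = 0.353 for the brighter).

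The beaded filament collagens, which form microfibrils around cells, had their lowest group mean in early life for all 3 measured genes. Col6a2 measured 9.14, 8.92, 8.78 and 8.56 in control, 8.32, 8.38, 8.24 and 8.53 in early life and 8.90, 8.71, 9.12 and 8.86 in peripubertal samples. Its early life values lay below all others, the closest pair being 8.53 in early life 4 and 8.56 in control 4. The difference was -0.48 against control (SE 0.16, adjusted p = 0.221 by limma) and -0.53 against peripubertal (SE 0.16, adjusted p = 0.144). The dim spots around its probe deviated by 1.03 and 0.68 in control 3 and 4. Without patches the control mean rested on animals 1 and 2, and the difference from control was -0.66 (SE 0.19, adjusted p = 0.165). Col6a1, encoded beside it on chromosome 10, measured 10.06, 10.09, 9.16 and 9.78 in early life and 10.48, 10.20, 10.90 and 10.55 in peripubertal samples, with no overlap. Its difference was -0.76 (SE 0.30, adjusted p = 0.210). Without patches the peripubertal mean rested on animals 1 and 2, and the difference was -0.57 (SE 0.37, adjusted p = 0.423). Col6a3, the longest chain, differed by -0.33 (SE 0.20, adjusted p = 0.379) between the same groups.

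Markers of other cells differed between the same samples. The mean deviation of 7 red cell genes ran from -1.06 to 1.09 (log2) in control, -1.31 to -0.06 in early life and 0.26 to 1.76 in peripubertal samples, so that early life and peripubertal animals did not overlap. That of 9 endothelial genes ran from -0.26 to 0.32, -0.48 to 0.06 and -0.10 to 0.30 in the same order, and that of 8 pericyte and smooth muscle genes from -0.28 to 0.21, -0.31 to 0.26 and -0.13 to 0.13. For 7 of 8 fibroblast genes it ran from -0.27 to -0.02 in control, -0.34 to 0.51 in early life and -0.27 to 0.14 in peripubertal samples, with Dpt not well above background in any channel. Outside these stromal and blood lists, the mean deviation of 6 pituicyte and posterior lobe genes, Avp and Oxt among them, ran from -0.50 to 0.01, -0.18 to 0.54 and -0.32 to 0.46. That of 6 folliculostellate and stem cell genes ran from -0.20 to 0.0, -0.10 to 0.41 and -0.16 to 0.13. That of 8 macrophage genes ran from -0.33 to 0.53, -0.47 to -0.02 and -0.25 to 0.66, and that of 5 meningeal genes from -0.14 to 0.25, -0.07 to 0.39 and -0.24 to 0.02. Early life 3 was the lowest animal of its group over the members, at -0.29. The same held for the fibroblast, pericyte, endothelial, macrophage, folliculostellate, pituicyte and posterior lobe, hormone cell, cartilage and skeletal muscle lists. The part of these cells in the differences above was not tested.

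Among transmembrane collagens, Col23a1 measured 9.05, 9.05, 9.14 and 8.87 in control, 9.94, 9.71, 9.29 and 9.55 in early life and 9.36, 9.0, 10.24 and 9.14 in peripubertal samples. Its early life values all lay above control, by a difference of 0.59 (SE 0.27, adjusted p = 0.313 by limma). The other kept probe of Col23a1 gave 0.53, but there the groups overlapped, with 8.83 in early life 2 and 8.87 in control 3. Counted over all members, early life lay wholly above control for 4 (7.97% of all genes) and wholly below for 2 (7.15%). Peripubertal lay wholly above control for 2 (3.70%) and wholly below for 1 (5.55%). Early life lay wholly above peripubertal for 2 (12.4%) and wholly below for 9 (9.92%), the latter being 16.4% of the members.

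No elastic fibre gene, proteoglycan or adhesive glycoprotein passed. Eln, elastin, averaged 7.39 ± 0.09 in control, 7.66 ± 0.37 in early life and 7.65 ± 0.11 in peripubertal samples, whose values (7.52 to 7.78) all lay above control (7.31 to 7.51). The closest pair was 7.52 and 7.51, and the difference was 0.25 (SE 0.23, unadjusted p = 0.283 by limma). The dim spots around the Eln probe deviated by 0.62 in peripubertal 1 and 0.14 in peripubertal 2, a patch on their array. Fbn1, fibrillin 1, averaged 8.71 ± 0.36, 8.82 ± 0.40 and 8.87 ± 0.32. Dcn, decorin, averaged 13.10 ± 0.50 in control, 13.43 ± 0.51 over 2 early life animals and 13.34 ± 0.35 in peripubertal samples. Lum, lumican, had the largest positive difference of any member for early life against control, with 10.35, 10.32, 9.60 and 10.78 in early life against 9.72, 9.73, 9.64 and 9.14 in control. Early life 3 lay within the control values, and the difference was 0.71 (SE 0.33, adjusted p = 0.321 by limma). Bgn, biglycan, differed by -0.18 (SE 0.20). Fn1, fibronectin, averaged 8.27 ± 0.30, 8.57 ± 0.73 and 8.41 ± 0.66 in control, early life and peripubertal samples. Sparc, which binds collagen and calcium, averaged 14.39 ± 0.51 in control on its brighter probe. That probe averaged 14.11 ± 0.72 in early life and 14.46 ± 0.33 in peripubertal samples, over the 2 animals measured in each. The other kept Sparc probe had values in every animal. It differed by 0.03 for each deficient group against control and by 0.00 for early life against peripubertal.

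By channel, no member differed between the dyes past the threshold, where 0.0525% of 19053 genes did. At an unadjusted p under 0.05, 5 members read higher in Cy5 (6.30% of all genes) and 2 lower (4.05%). Lamb1 read higher in Cy5 on all 6 arrays, by a mean of 0.46 (SE 0.12, adjusted p = 0.219 by limma). Fbn1 read higher by 0.43 (SE 0.12) and Col17a1, a hemidesmosome collagen, by 0.41 (SE 0.12). Dye and animal number cannot be told apart, since odd-numbered animals were always in Cy3.

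The machinery that folds, cuts and binds these proteins was described through 4 lists, and none of their genes passed. Of 24 tested genes of collagen processing, early life exceeded control for 3 and lay below it for 3 at an unadjusted p under 0.05, the level that 8.66% and 7.48% of all genes reached. Plod1, which hydroxylates collagen lysines, differed by -0.73 (SE 0.19, adjusted p = 0.154 by limma), with 7.80 to 8.18 in early life and 8.32 to 9.05 in control. Pcolce2, an enhancer of procollagen cleavage, differed by 0.55 (SE 0.14, adjusted p = 0.152), and Loxl1, a lysyl oxidase for elastin, by 1.03 (SE 0.35, adjusted p = 0.228) over 2 early life animals. Against peripubertal, 2 were above and 4 below (10.6% and 8.77% of all genes), with -0.90 for Plod1 (adjusted p = 0.0861) and 0.62 for Pcolce2 (adjusted p = 0.0956).

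Of 38 other matrix proteins, early life exceeded control for 7 and lay below it for 2 at that level (8.66% and 7.48% of all genes). Their median difference was 0.12 beside 0.03 over all genes. Against peripubertal these counts were 7 and 6 (10.6% and 8.77% of all genes). Agrn, agrin, a heparan sulfate proteoglycan of basement membranes, measured 10.91, 11.43, 11.19 and 11.26 in control and 12.13 and 12.24 in the 2 early life animals of the array that gave a value. The difference was 0.99 (SE 0.20, adjusted p = 0.129 by limma). Thbs1, thrombospondin 1, differed by 1.24 (SE 0.34, adjusted p = 0.162), with 9.43 to 10.33 in early life and 8.02 to 9.32 in control. Emilin2 differed by -2.16 (SE 0.53, adjusted p = 0.145), and by -2.84 against peripubertal (adjusted p = 0.0580).

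Of 17 tested genes of matrix breakdown and its inhibitors, 2 were above control and 3 below at an unadjusted p under 0.05 (8.66% and 7.48% of all genes). Against peripubertal, 1 of 18 was above and 2 below (10.6% and 8.77% of all genes). Mmp7, matrilysin, measured 8.27, 10.19, 7.73 and 8.99 in control, 6.89, 6.98, 7.32 and 7.14 in early life and 11.22, 9.64, 8.48 and 8.35 in peripubertal samples. Every early life value lay below all others, but the probe was well above background in only 8 of the 12 channels, so no exact difference is given (adjusted p = 0.296 against control and 0.151 against peripubertal by limma). Timp1, an inhibitor of matrix metalloproteases, differed by -0.74 (SE 0.25, adjusted p = 0.222). Of 20 matrix receptors, only Itga11, a collagen-binding integrin chain, reached that level against control, at 0.45 (SE 0.20, adjusted p = 0.304). Against peripubertal 3 receptors were above (10.6% of all genes), with 0.60 for Itgav (SE 0.20, adjusted p = 0.160). The 1 below (8.77% of all genes) was Itga9 at -0.74 (SE 0.25, adjusted p = 0.159). Between peripubertal and control, 2 genes of the 4 lists reached that level, where 1.60% of all genes were higher and 3.08% lower. They were P3h3, which hydroxylates collagen prolines, at 0.29 (SE 0.13, adjusted p = 1.00) and Spock1, a proteoglycan, at -0.31 (SE 0.13, adjusted p = 1.00).

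The count of members past the threshold depended on single libraries. The count over all genes moved with it, from 18 and 24 in the 2 comparisons of early life, with control and with peripubertal samples. Against control, 1 member and 225 genes passed without control 3, 1 member and 281 genes without early life 3, and 6 members and 1915 genes without the array of early life 3 and 4. Against peripubertal, 1 member and 231 genes passed without control 3, 3 members and 751 genes without early life 3, and 6 members and 2374 genes without the array of early life 3 and 4. Without the array of control 3 and 4 it was 1 member and 120 genes, and without that of peripubertal 3 and 4 it was 1 member and 48 genes. Between peripubertal and control 0 members passed in every such fit. The fit without the array of early life 3 and 4 left that group with animals 1 and 2 of 1 array.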

How the data were processed

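Pituitary RNA of 12 mice was hybridised in pairs to 6 Agilent 2-colour arrays. The deposited scanner files give spot intensity with local background and quality marks, as the scanner software Feature Extraction (version 11.0.1.1, per the file headers) wrote them. The deposited value table gives log2 values whose column medians are 0, and the labels describe no scaling for it. It served as an alternative for both deficient groups, whose columns were recomputed from scanned channels within 1e-06. Its 4 control columns matched no channel and were not used.

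From the raw intensity, background was corrected by normexp (offset 50), dyes by loess within arrays and arrays by Aquantile in limma 3.58.1 (R 4.3.3). Control spots were left out, and spots marked as outliers were removed for both animals of an array, so 8 members in the fit lack an array. Probes well above background in at least 4 of 12 channels were kept, and the probe of highest mean stood for its gene, giving 19090 genes. The limma model held terms for group and dye, with the array as a random block (correlation 0.342), and two-sided p-values were adjusted by Benjamini-Hochberg over all genes of a comparison. The model was checked against limma's own output and tested on simulated data. A patch is a place where the dim spots within 4 rows and 2 columns deviated by a median of 0.3 or more (log2) on an array. This held for 6.33% of all spots and channels. Of the 55 members, 17 had a patch on at least 1 array, a count in other units than that share. No genome was used, so probes were not realigned. Promoters are RefSeq's.

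Named members are those with an unadjusted p under 0.05 in a comparison, up to 8 in each direction, a core set always given, and members whose probes disagree. From each list the 3 genes of smallest p were eligible. Other members with values (such as Lama3, Lamb1, Col4a3, Col6a3, Col15a1, Col16a1, Col23a1 and Col25a1), Gm2839, Pgr, Gal and Greb1 were added after their values were seen. The members and lists were chosen with earlier results of these data known. With 6 arrays, precision is limited by their number. Values of 1 member are not reported here, though it stays in the counts.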

Additional observations from a re-analysis of the deposited data

Results flagged for a closer look

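In 155 sets of 4 animals (1 member in 1 group), 12 had 1 animal whose gap to its nearest neighbour was, as a share of the group's range, above the critical value of Dixon's test. Chance alone gives about 1 in 20, or 7.75 here. The widest gap was that of Lamb3 in control 3, at 9.18 (log2) with the other controls at 11.64 to 12.15. Peripubertal 3 was the animal set apart most often, at 11.19 for Col3a1 and 8.54 for Col4a4, both high, and at 7.16 for Col17a1 and 7.52 for Col24a1, both low. Peripubertal 4 read low for Col11a1 at 7.58 and for Col15a1 at 7.5, and peripubertal 2 high for Col11a2 at 7.5. Of the early life animals, animal 1 read high for Lama3 at 10.17, animal 2 low for Col16a1 at 10.32 and animal 3 low for Col5a1 at 7.64. Lum was low in control 4, at 9.14. Around Col17a1 the dim spots in peripubertal 3 deviated by -0.34.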

How the results depend on the processing

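Over 24 differences of single named members and all alternatives, 751 values were computed, of which 0 changed sign, 24 moved past the threshold and 727 stayed below it. Leaving out each animal gave 0 to 1 members past the threshold, with a median difference of 0.05 to 0.24, for early life against control. The same runs gave 0 members and 0.06 to 0.15 where peripubertal was set against control, and 0 to 3 members and -0.19 to 0.12 for early life against peripubertal. Leaving out an array gave 6 members for each comparison with early life without the array of early life 3 and 4. For early life against peripubertal it gave 1 without the array of control 3 and 4 and 1 without that of peripubertal 3 and 4. With marked spots dropped before scaling, an alternative added after seeing the data, 9 members passed for early life against control, with a median of 0.37 over the members and 0.31 over all genes, of which 3070 passed. For early life against peripubertal the median was then 0.13, beside 0.19 over all genes. With the replicate number as a block, 0 members passed in each comparison. Deviations of the 12 same-numbered pairs correlated at -0.29 to 0.06, and those of pairs of unlike number at -0.19 to 0.12. These values cannot show whether the numbers stand for a pairing such as litter or cage, which the labels do not name.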
